A study of Mus musculus with 7 samples.

Results

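The gene for interferon-gamma, the genes for both chains of its receptor and of the type I interferon receptor, and the genes for the 3 JAK kinases that these receptors carry were followed in mouse heart. The set was Ifng, Ifngr1, Ifngr2, Ifnar1, Ifnar2, Jak1, Jak2 and Tyk2. It was chosen by pathway role, with earlier results of these data known, and all 8 genes were found among the 23420 rows of the table. All 8 were also among the 15258 genes that passed the filter on low values, although Ifng passed it only through the diseased hearts and 1 control.

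Hearts from 7 mice were measured by bulk sequencing of stranded total RNA from flash-frozen ventricle, which the tissue label calls whole heart. The 3 ICI-myocarditis mice, a model of myocarditis caused by immune checkpoint inhibitors, were Ctla4+/-;Pdcd1-/-, and the 4 control mice were Ctla4+/+;Pdcd1-/-. All 7 were thus labelled as lacking Pdcd1, all were untreated and 3 to 6 weeks old, and no mouse received a checkpoint inhibitor or a JAK inhibitor. The groups thus differ by 1 inherited copy of Ctla4, and the labels name no tissue-specific driver. The strain is not given in the sources used here.

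Interferon-gamma is the type II interferon and is made mainly by T cells and natural killer (NK) cells. It binds IFNGR1, which carries JAK1, and brings in IFNGR2, which carries JAK2. The kinases then phosphorylate STAT factors, which enter the nucleus as dimers and bind GAS elements in target promoters. Type I interferons use another receptor, in which IFNAR1 carries TYK2 and IFNAR2 carries JAK1, and which also activates STAT factors. Cardiac muscle, vessel and connective tissue cells as well as leukocytes express these receptors, while the ligand gene is active in few cell types. JAK1 and JAK2 are the kinases inhibited by ruxolitinib, a drug examined in the same study.

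The promoters of the ligand, of the kinase that passed the test and of the receptor chain with the highest level are shown because the ligand gene differs from the others in its core elements. Each is the 250 bases before the RefSeq start site on the plus strand of GRCm38.p6, at chr10:118440796-118441045 for Ifng, chr19:29251553-29251802 for Jak2 and chr16:91546809-91547058 for Ifngr2. Capitals mark matches to the GAS motif TTCNNNGAA, the TATA box TATAAA and the GC box GGGCGG on either strand.
Ifng: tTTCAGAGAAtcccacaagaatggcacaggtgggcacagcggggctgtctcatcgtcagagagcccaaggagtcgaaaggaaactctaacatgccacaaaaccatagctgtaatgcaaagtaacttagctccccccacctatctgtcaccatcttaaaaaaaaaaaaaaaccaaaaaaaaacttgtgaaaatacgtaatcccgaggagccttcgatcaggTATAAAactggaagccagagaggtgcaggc
Jak2: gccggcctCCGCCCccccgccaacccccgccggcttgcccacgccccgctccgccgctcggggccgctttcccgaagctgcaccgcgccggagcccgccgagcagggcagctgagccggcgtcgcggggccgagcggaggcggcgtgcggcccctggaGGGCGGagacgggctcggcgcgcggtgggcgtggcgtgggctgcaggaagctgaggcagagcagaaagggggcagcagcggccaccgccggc
Ifngr2: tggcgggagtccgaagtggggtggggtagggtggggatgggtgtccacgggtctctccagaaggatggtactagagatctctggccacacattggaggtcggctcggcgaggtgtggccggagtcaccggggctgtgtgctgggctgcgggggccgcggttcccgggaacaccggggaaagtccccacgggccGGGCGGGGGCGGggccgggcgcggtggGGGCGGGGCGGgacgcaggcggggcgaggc
Ifng had the lowest GC content of the 8 promoters, at 45.2%. The median over 32851 promoter windows of 27025 genes was 52.4%, and Jak2 and Ifngr2 lay at 80.8% and 74.0%. A TATA box was found in Ifng alone, 30 to 25 bases before the start, and in 12.4% of all windows. The GC box was found in 6 of the 8 promoters and in 32.7% of all windows. It was missing from Ifng and Ifnar2 and occurred 4 times, with overlaps, in Ifngr2. A GAS match was found in Ifng, 249 to 241 bases before the start, and in Ifnar2, 214 to 206 bases before it, against 7.02% of all windows. The core letters of the interferon-stimulated response element, TTTCNNTTT, were in none of the 8 and in 9.37% of all windows. CCAAT was in 4 of the 8 and in 33.8% of windows. These are matches of letters within this window, and no binding was measured.

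Depth was 20931730 to 39037176 reads assigned to genes per library, recovered from the table's values, which are read counts divided by a size factor per library and are called normalized counts here. Cardiomyocyte markers were abundant in every library, with sums over 8 genes from 788300 to 2564000 normalized counts. Thymus markers were too low to test. So were fat markers, but their sum was 159 in control 3 and 3.82 to 12.3 in the other 6 libraries. Control 2 stood apart from the other controls: on the first principal component, with 68.6% of the variance, controls 1, 3 and 4 lay between 61.2 and 96.7, control 2 at -2.3, and the ICI-myocarditis libraries between -105 and -58.9. The mean of Ctla4 was 63.3 ± 37.4 over the 4 controls and 302 ± 63.4 over the 3 diseased hearts (normalized counts, SD), and that of Pdcd1 was 64.8 ± 120 and 1305 ± 195. Gene totals do not show which exons were read, so they do not check either genotype. In bulk tissue, fewer cells of a type and less RNA per cell cannot be told apart.

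Ifng and Jak2 were called higher in ICI-myocarditis, and the other 6 genes did not pass the test. Under 17 alternative analyses the call of Ifng held in 17 and that of Jak2 in 9. The test was limma on log2(normalized count + 1), with the Benjamini-Hochberg adjusted p held to 0.05 over all 15258 genes. It called 2 of the 8 genes, both higher, where it called 15.7% of all genes tested, 11.7% as higher and 4.00% as lower. The median log2 fold change of all genes tested was -0.02, and their median standard error was 0.29. Every ICI-myocarditis library lay above every control for 4 of the 8 genes, namely Ifng, Ifnar1, Ifnar2 and Jak2, and for 17.3% of all genes tested. In the authors' deposited table, 3 of the 8 had an adjusted p below 0.05, against 20.2% of the 16882 genes given one there. In that table Jak2 had a log2 fold change of 0.83 (adjusted p = 0.00867), Ifng 4.58 (adjusted p = 0.0212) and Ifnar2 0.52 (adjusted p = 0.0455).

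**Figure D1:**
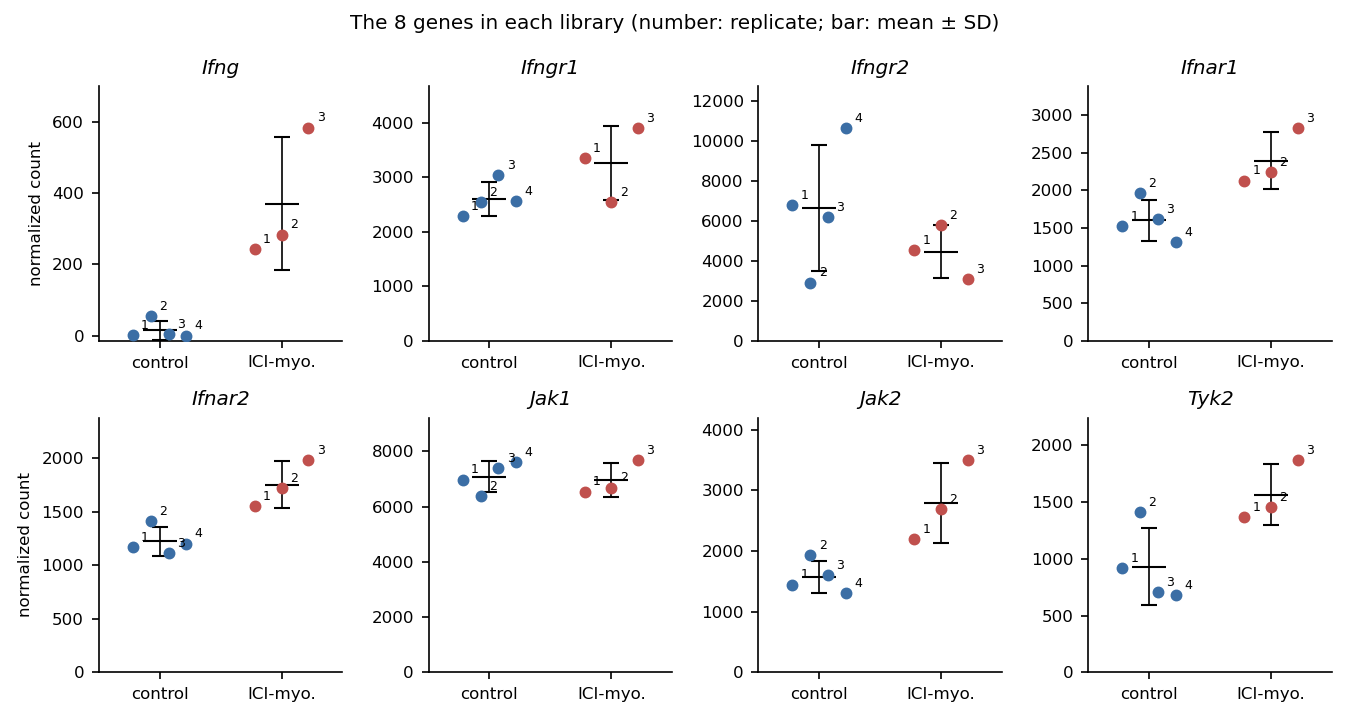
Normalized count (reads divided by the authors' size factor) of each of the 8 genes in each library, on linear axes that differ between panels. Points are single libraries with their replicate numbers, and bars give the mean and SD (control n = 4, ICI-myocarditis n = 3). Ifng runs from 0 to 55.5 in controls and from 244 to 583 in ICI-myocarditis, while Jak1 overlaps between groups.

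Ifng (chromosome 10, 118441046 to 118445892, plus strand, GRCm38) encodes the ligand. Controls 1 to 4 had 2.02, 55.5, 4.47 and 0 normalized counts of Ifng, from 2, 45, 4 and 0 reads. ICI-myocarditis libraries 1 to 3 had 244, 283 and 583, from 238, 391 and 763 reads. Controls 1 and 4 were thus below 3 reads, and 0 reads in control 4 allow a level up to 3.75 normalized counts, counting error only. Control 2 held most of the control signal and still lay well under the lowest diseased heart, so the groups did not overlap. The mean went from 15.5 ± 26.7 (SD, n = 4) to 370 ± 186 (SD, n = 3), a ratio of means of 23.9. On the log2(normalized count + 1) scale the change was 5.96 (SE 1.14, 95% interval 3.39 to 8.53, limma adjusted p = 0.00935). Without control 2 it was 7.08 (limma adjusted p = 0.000107), and it passed under all 17 alternatives, from 4.55 to 7.08 with a largest adjusted p of 0.0441. The annotated transcript Gm49751, which has no row in the table, shares 26.0% of the exon bases of Ifng on the same strand.

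No other interferon gene came near this level. Of 18 genes for type I and type III interferons, 0 passed the filter on low values and 11 were at 0 in all 7 libraries. The highest value of any was 9.87 normalized counts, for Ifnk in control 2, a gene named after its values were seen. Summed over the 18 genes, controls had 4.03 to 13.6 and ICI-myocarditis libraries 14.3 to 17.6 normalized counts. Il22 and Iltifb, the cytokine genes next to Ifng on chromosome 10, were at 0 in every library. On the other side of Ifng, Dyrk2 had a log2 fold change of 0.11 (limma adjusted p = 0.796).

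Levels of Ifng over the 7 libraries were most like those of T cell and chemokine genes. Likeness was measured as the root mean square difference between centred log2 profiles, where 0 means the same profile. The profiles span both groups, so the difference also grows with the gap in fold change between 2 genes. The 5 nearest genes were Cd8b1 (0.240), which encodes a chain of the CD8 coreceptor, Sectm1a (0.350), Ccl5 (0.440) and Cxcl10 (0.445), which encode chemokines, and Nkg7 (0.448), a cytotoxic granule gene. Cd8b1 went from 37.3 ± 60.8 to 864 ± 275 normalized counts. In ICI-myocarditis libraries 1 to 3 it lay at 669, 744 and 1178, in the same order as Ifng, an order that 7 of the 10 T cell markers had. Cd3d, at 1392, 573 and 662, was highest where Ifng was lowest. Among the 10 T cell markers the difference from Ifng ran from 0.24 for Cd8b1 to 2.05 for Cd4. The 5 NK cell markers that passed the filter were less alike, from 1.22 for Klri2 to 2.67 for Ncr1. Cd4 and Ncr1 had smaller log2 fold changes, at 2.89 and 1.05 against 5.96 for Ifng, which adds to their distance. Which cells held the Ifng transcripts was not tested. Ncr1, which encodes an NK cell receptor, had 54.2, 24.6 and 18.3 normalized counts in the same 3 libraries, highest where Ifng was lowest.

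The sums of the T cell and NK cell markers were higher in every ICI-myocarditis library than in any control. All 10 T cell markers were called higher, against 11.7% of all genes tested. Their sum was 159 to 2003 normalized counts in controls and 8510 to 13500 in ICI-myocarditis. Of the 10, Cd3d and Cd8b1 reached 10 normalized counts in fewer than 3 controls and so entered the test through the diseased hearts. The other 8 T cell markers were all called higher. For NK cells, 2 of 5 tested markers were called higher, and Klra8 and Klra4 were at 0 in all 7 libraries. The NK cell sums were 10.01 to 153 in controls and 409, 229 and 176 in ICI-myocarditis libraries 1 to 3. This order is the reverse of that of Ifng. All 5 tested NK cell markers entered the test through the diseased hearts. Their count of calls was 1 without any 1 library other than control 2, and 3 of 4 without control 2. Of all genes tested, 22.1% were called without control 2 and 6.55% to 13.8% without another library. Set against the mean log2 value of Cd3d, Cd3e and Cd3g, which encode parts of the T cell receptor complex, the log2 value of Ifng was -1.99, -1.46, -1.57 and -3.34 in controls 1 to 4. It was -1.93, -1.49 and -0.95 in the ICI-myocarditis libraries, so the groups overlapped. The difference was 0.63 (exact two-sided permutation p = 0.343, adjusted over the 6 ratios tested 0.411), and it turned to -0.14 with a pseudocount of 5. The part of T cell content in the rise of Ifng was not tested.

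**Figure D2:**
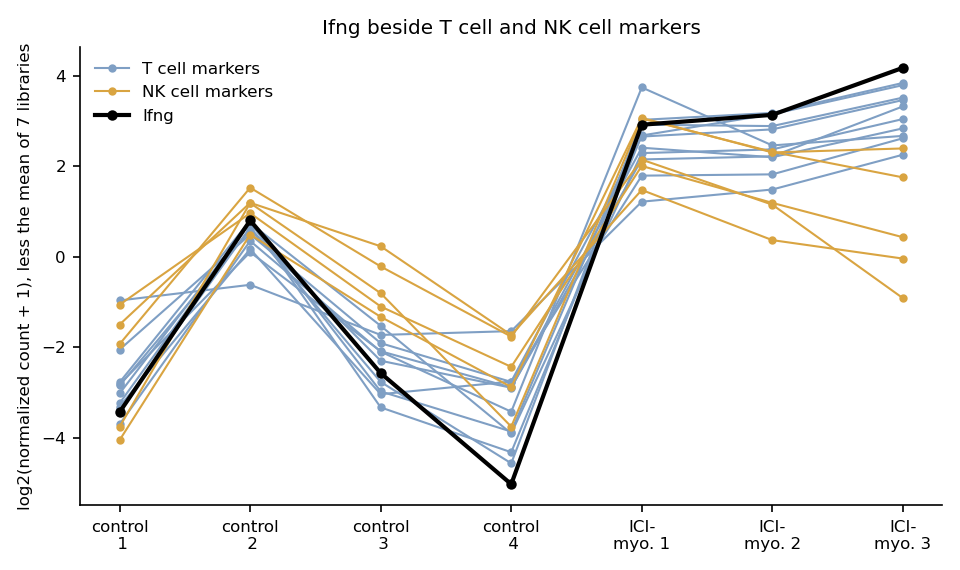
Log2(normalized count + 1) of Ifng (black), the 10 T cell markers and the 5 tested NK cell markers in each of the 7 libraries, each less its own mean over the libraries. Lines join the values of 1 gene and carry no order in time. Ifng runs beside most T cell markers, with control 2 above the other controls, and lies above all markers of both kinds in ICI-myocarditis library 3.

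The chains of the interferon-gamma receptor did not pass the test, and their fold changes had opposite signs. Ifngr1 (chromosome 10, 19591949 to 19610229, plus strand) encodes the ligand-binding chain. Its normalized counts were 2296, 2551, 3039 and 2559 in controls and 3349, 2548 and 3898 in ICI-myocarditis. ICI-myocarditis library 2 lay within the control range, and the log2 fold change was 0.31 (SE 0.21, 95% interval -0.16 to 0.78, limma adjusted p = 0.367). Ifngr2 (chromosome 16, 91547072 to 91565623, plus strand) encodes the chain that carries JAK2. It had 6798, 2917, 6179 and 10612 normalized counts in controls and 4518, 5786 and 3095 in ICI-myocarditis. Its control values spread more than those of any other receptor gene, with control 2 below every diseased heart. The log2 fold change was -0.47 (SE 0.415, 95% interval -1.41 to 0.46, limma adjusted p = 0.494), and without control 2 it was -0.82 (limma adjusted p = 0.0898). Without any other 1 library it ran from -0.68 to -0.20 (limma adjusted p from 0.426 to 0.858).

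Ifngr2 ran beside heart muscle genes, a comparison added after its values were seen. Among the 8 cardiomyocyte markers the profile difference was 0.178 for Actc1, which encodes cardiac actin, to 0.502 for Tnni3, which encodes cardiac troponin I. The T cell markers lay at 1.92 to 3.72 from Ifngr2. They were also far from other genes of the set, at 1.52 to 3.29 from Jak1 and 1.05 to 2.77 from Tyk2. Nearest to Ifngr2 of all tested genes were Rcan2 (0.0736), a calcineurin regulator, Sh3bgr (0.0822) and Lrrc20 (0.116). Srl (0.122), which encodes a protein of the sarcoplasmic reticulum, and Hmgb3 (0.128) followed. The summed cardiomyocyte markers were 2221000, 1275000, 1830000 and 2564000 normalized counts in controls and 1184000, 1342000 and 788300 in ICI-myocarditis. Control 4 was highest and control 2 lowest of the controls in this sum as in Ifngr2. The list had a median log2 fold change of -0.82 with 0 of 8 genes called, and its part in the Ifngr2 values was not tested.

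Within each library the log2 ratio of Ifngr2 to Ifngr1 was 1.57, 0.19, 1.02 and 2.05 in controls and 0.43, 1.18 and -0.33 in ICI-myocarditis. Ifngr1 exceeded Ifngr2 in ICI-myocarditis library 3 only, as counts not corrected for length. The mean was 1.21 ± 0.80 (SD, n = 4) and 0.43 ± 0.76 (SD, n = 3). The difference was -0.78 (exact two-sided permutation p = 0.257, adjusted over 6 ratios 0.386). Of 35 allocations of the libraries to the groups, 9 gave a difference as large.

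Both chains of the type I receptor were higher in every diseased heart than in any control, but neither passed the test. Ifnar1 (chromosome 16, 91485238 to 91507441, plus strand), whose product carries TYK2, had 1522, 1963, 1622 and 1312 normalized counts in controls and 2129, 2241 and 2823 in ICI-myocarditis. The log2 fold change was 0.58 (SE 0.202, 95% interval 0.13 to 1.04, limma adjusted p = 0.0841). Ifnar2 (chromosome 16, 91372783 to 91405589, plus strand), whose product carries JAK1, had 1166, 1411, 1110 and 1201 in controls and 1552, 1722 and 1981 in ICI-myocarditis. Its log2 fold change was 0.52 (SE 0.179, 95% interval 0.12 to 0.92, limma adjusted p = 0.0824). Control 2 was the highest control for both, and without it Ifnar1 passed (limma adjusted p = 0.0386) and Ifnar2 came to 0.0504. Without any other 1 library neither passed. The limma adjusted p then ran from 0.115 to 0.314 for Ifnar1 and from 0.107 to 0.302 for Ifnar2. Gm21970, which has no row in the table, shares 9.46% of the exon bases of Ifnar2 on the same strand.

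Ifnar2 and Ifnar1 held to a narrow ratio. Their log2 ratio was -0.39, -0.48, -0.55 and -0.13 in controls and -0.46, -0.38 and -0.51 in ICI-myocarditis, with full overlap of the diseased values and the control range. The difference was -0.07 (exact two-sided permutation p = 0.743, adjusted over 6 ratios 0.743), and without control 4 it was 0.02.

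Ifnar2, Il10rb, Ifnar1 and Ifngr2 lie in this order on the plus strand of chromosome 16, and their fold changes did not share a sign. Il10rb, which encodes a chain shared by the receptors of interleukin-10 and the type III interferons, had 3188 ± 958 normalized counts in control and 2519 ± 374 in diseased hearts (log2 fold change -0.29, limma adjusted p = 0.528). Ifnar2 and Ifnar1, on either side of it, had positive fold changes, and Ifngr2 at the end of the row had a negative one. Tmem50b, the next gene, had a log2 fold change of -0.03 (limma adjusted p = 0.966).

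Among the kinases, Jak2 was called higher, Tyk2 had a similar fold change without passing the test, and Jak1 overlapped between groups. The log2 fold changes of Jak2 and Tyk2 were 0.82 and 0.80, and the difference between them was not tested. Jak2 (chromosome 19, 29251828 to 29313080, plus strand) had 1446, 1929, 1600 and 1307 normalized counts in controls and 2201, 2686 and 3503 in ICI-myocarditis. All diseased hearts lay above control 2, the highest control. The mean went from 1571 ± 267 (SD, n = 4) to 2797 ± 658 (SD, n = 3), by 0.82 on the log2 scale (SE 0.222, 95% interval 0.32 to 1.32, limma adjusted p = 0.0359). The call held under 9 of 17 alternatives, and the fold change was between 0.65 and 0.98 under all of them. It was lost without ICI-myocarditis library 2 (limma adjusted p = 0.102) or 3 (0.157), and without control 1 (0.0900), control 3 (0.0887) or control 4 (0.0713). Without control 2 the change was 0.93 (limma adjusted p = 0.0179).

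Jak1 (chromosome 4, 101152367 to 101265282, minus strand), the kinase that both receptors use, had 6976, 6366, 7392 and 7613 normalized counts in controls and 6539, 6688 and 7686 in ICI-myocarditis. The groups overlapped almost fully. Its log2 fold change was -0.02 (SE 0.204, 95% interval -0.48 to 0.43, limma adjusted p = 0.954), and the direction flipped in 5 of 17 alternatives. Scaling by library size alone was among these: it moved Jak1 to 0.14 and the median of all genes tested from -0.02 to 0.13. Tyk2 (chromosome 9, 21104068 to 21131243, minus strand), the kinase of IFNAR1, had 920, 1415, 707 and 681 in controls and 1369, 1459 and 1872 in ICI-myocarditis. Control 2 lay inside the diseased range, and the log2 fold change was 0.80 (SE 0.275, 95% interval 0.18 to 1.42, limma adjusted p = 0.0815). Without control 2 it was 1.03 and passed (limma adjusted p = 0.00947). Without any other 1 library Tyk2 did not pass (limma adjusted p from 0.117 to 0.283). The antisense transcript 1700084C06Rik, with no row in the table, shares 8.07% of the exon bases of Tyk2, and the use of strand in counting is not given in the sources used here.

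**Figure D3:**
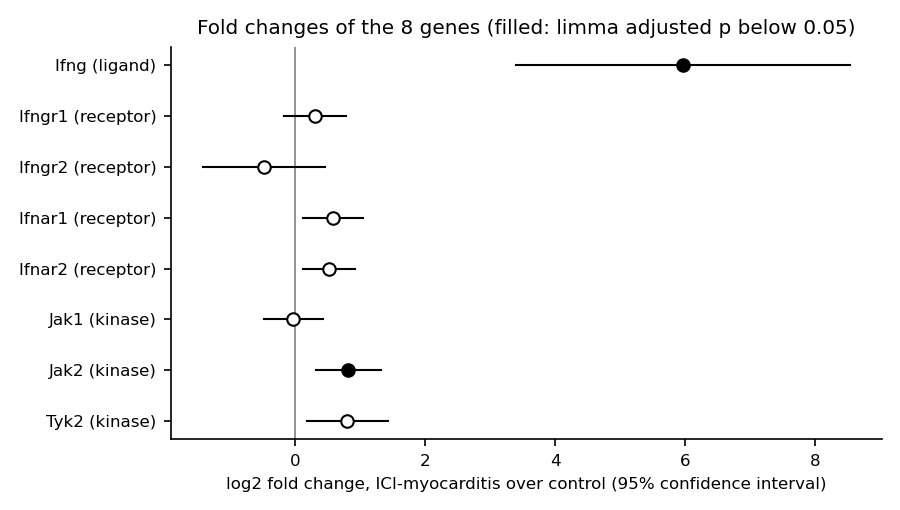
Log2 fold change of each of the 8 genes, ICI-myocarditis over control, from limma on log2(normalized count + 1), with 95% intervals. Filled points have an adjusted p below 0.05. The intervals of Ifng, Ifnar1, Ifnar2, Jak2 and Tyk2 lie above 0, and after adjustment over all genes Ifng and Jak2 are called.

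Ratios within a library do not depend on the scaling between libraries, although those with Ifng depend on the pseudocount. The log2 ratio of Jak2 to Jak1 was -2.27, -1.72, -2.21 and -2.54 in controls and -1.57, -1.32 and -1.13 in ICI-myocarditis. Every diseased heart thus had more Jak2 per Jak1 than any control. The mean went from -2.19 ± 0.34 (SD, n = 4) to -1.34 ± 0.22 (SD, n = 3), a difference of 0.84 (exact two-sided permutation p = 0.0571, adjusted over 6 ratios 0.171). Of 35 allocations of the libraries to groups of 4 and 3, 2 gave a difference as large, and the smallest p possible here is 0.0286.

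Tyk2 to Jak1 went from -2.99 ± 0.60 to -2.16 ± 0.11, with control 2 at -2.17 inside the diseased range (exact two-sided permutation p = 0.114, adjusted over 6 ratios 0.229). Ifng to Jak2 went from -8.14 ± 2.22 to -3.00 ± 0.36, by 5.14, with the groups apart (exact two-sided permutation p = 0.0571, adjusted over 6 ratios 0.171). With few Ifng reads in controls this difference moved to 4.05 with a pseudocount of 5 and 5.49 with 0.5, to 4.40 without control 4 and to 6.15 without control 2. None of the 6 ratios passed after adjustment, which in this design takes a single ratio at the smallest p only to 0.171.

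**Figure D4:**
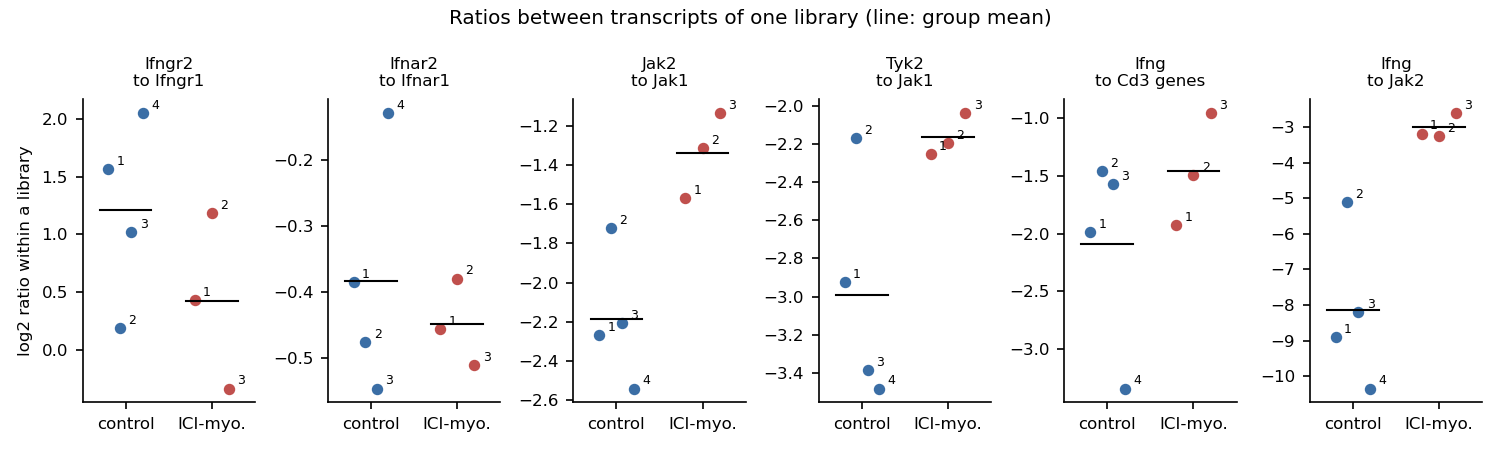
Log2 ratio of normalized counts within each library for the 6 gene pairs, with points for libraries, numbered by replicate, and lines for the group means. The groups are apart for Jak2 to Jak1 and for Ifng to Jak2, and overlap for the other 4 ratios.

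The levels of different genes were compared per kilobase of exon, using the merged exons of GENCODE M21. In controls Ifngr2 was highest, at 1759 ± 838 normalized counts per kilobase (SD, n = 4), followed by Jak1 at 981 ± 75.9 and Ifngr1 at 917 ± 109. These 3 were not separated in every library: Ifngr2 exceeded Jak1 in 3 of 4 controls, and Jak1 exceeded Ifngr1 in 2 of 4. Below them came Ifnar2 at 367 ± 39.5, Jak2 at 312 ± 53.1, Ifnar1 at 270 ± 45.7, Tyk2 at 136 ± 49.6 and Ifng at 12.0 ± 20.7, an order seen in all 4 controls.

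In ICI-myocarditis the top 3 were again Ifngr2, Ifngr1 and Jak1, at 1186 ± 357, 1147 ± 238 and 965 ± 86.3 normalized counts per kilobase (SD, n = 3), in varying order between libraries. Jak2 followed at 556 ± 131 and Ifnar2 at 526 ± 64.9, with Jak2 above Ifnar2 in 2 of 3 libraries. Ifnar1 lay at 404 ± 62.8 and Ifng at 286 ± 143, and Ifng was above Tyk2 (228 ± 39.1) in 2 of 3. Among the 14282 tested genes with a known length, the mean level of Ifng exceeded 13.2% in controls and 72.3% in ICI-myocarditis. For Tyk2 these shares were 52.5% and 66.3%, for Jak2 74.7% and 85.8%, and for Jak1 92.3% and 92.4%.

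A single library was extreme for most of the 8 genes in each group. Library 3 was the highest of the ICI-myocarditis libraries for 7 genes and the lowest for the remaining one, Ifngr2. Control 2 was the highest control for Ifng, Ifnar1, Ifnar2, Jak2 and Tyk2 and the lowest for Ifngr2 and Jak1. The summed T cell markers were also highest in these libraries within their groups, at 13500 in ICI-myocarditis library 3 and 2003 in control 2, and the summed cardiomyocyte markers were lowest in both. Macrophage and monocyte markers, of which 8 of 9 were called higher, summed to 13370 to 18500 in controls and 48250 to 73030 in ICI-myocarditis. Over all genes tested, 11.7% were called higher and 4.00% lower. With 1 library left out, the share called in either direction ran from 6.55% (without ICI-myocarditis library 3) to 22.1% (without control 2). Endothelial markers, of which 4 of 7 were called lower, summed to 29250 to 72510 in controls and 19060 to 27150 in ICI-myocarditis. The endothelial count was 4 without control 2, 7 without control 4 and 2 without any other library. Fibroblast markers, of which 2 of 6 were called higher, summed to 34100 to 51750 in controls and 63420 to 124600 in ICI-myocarditis. The 2 were the collagen genes Col1a1 and Col1a2, at log2 fold changes of 1.87 and 1.63. Pdgfra (0.27), Tcf21 (0.70), Dcn (0.11) and Lum (0.51) were not called. The fibroblast count was 0 without ICI-myocarditis library 2 or 3 or without control 3, and 2 without any other library. The part of cell content in the values of Jak2, Tyk2, Ifnar1 and Ifnar2 was not tested.

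Levels of Jak2 were most like those of Atp7a (0.0934), a copper transporter gene, Arid3b (0.103), Mdfic (0.103) and Wipf1 (0.106), an actin regulator of leukocytes. Of these, Atp7a also passed the test, at 0.89 (limma adjusted p = 0.0353). Insl6, the gene after Jak2 on chromosome 19 and named after its values were seen, went from 5.47 ± 5.54 to 48.0 ± 19.0 normalized counts on the opposite strand (log2 fold change 3.24, limma adjusted p = 0.0136). Rcl1, the gene before Jak2, had a log2 fold change of 0.26 (limma adjusted p = 0.463).

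The wider pathway was read through gene lists, chosen with earlier results of these data known and described by counts beside the 15.7% of all genes that were called. That share itself moved with the libraries used. It was 22.1% without control 2, and 10.7%, 9.27% and 6.55% without ICI-myocarditis library 1, 2 or 3. The leave-out counts of each list are to be read beside these shares. Of 22 genes listed as early targets of interferon-gamma, 21 were called higher and 0 lower, with a median log2 fold change of 3.35. Cxcl11 reached 10 normalized counts in fewer than 3 controls and so entered the test through the diseased hearts. Of the 21 others, 20 were called. Cd74, the invariant chain of MHC class II, went from 5884 ± 3742 to 90990 ± 28550 normalized counts (log2 fold change 4.10, limma adjusted p = 0.00251). Fcgr1, a high-affinity antibody receptor gene and also a macrophage marker, rose by 3.46 (limma adjusted p = 0.0031). Nos2, which encodes inducible nitric oxide synthase, was the exception, at 840 ± 373 and 964 ± 599 (log2 fold change 0.06, limma adjusted p = 0.961). Without control 2 the count was again 21, and without ICI-myocarditis library 3 it was 13.

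Upstream of the ligand, 10 of the 11 tested inducers of interferon-gamma were called higher and 0 lower, with a median of 3.66. Il27 and Ebi3, which encode the subunits of interleukin-27, rose by 4.13 and 2.52 (limma adjusted p = 0.00316 and 0.00457). Of the 11, 5 reached 10 normalized counts in fewer than 3 controls and so entered the test through the diseased hearts, where they had to be higher. These were Tbx21, Eomes, Il12b, Il21 and Il27, and among the other 6 inducers 5 were called. Il15 was the one not called, at 650 ± 223 and 540 ± 183 normalized counts (log2 fold change -0.25, limma adjusted p = 0.663). The count was 10 of 11 without control 2 and 3 of 9 without ICI-myocarditis library 3. Il12a, Il2 and Il23a did not pass the filter on low values.

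Among STAT genes and Irf9, 3 of 8 were called higher and 0 lower, with a median of 0.71. Stat4, which acts in T cells and NK cells downstream of interleukin-12, rose by 3.89 (limma adjusted p = 0.0121). The count was 4 without control 2 and 1 without ICI-myocarditis library 3. Jak3, the JAK kinase of the common gamma chain, had 1002, 1895, 798 and 502 normalized counts in controls and 1541, 1715 and 2006 in ICI-myocarditis. Control 2 lay within the diseased range, and the change of 0.90 did not pass (limma adjusted p = 0.152).

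Of 15 inhibitors of the receptors and kinases, 6 were called higher and 0 lower, with a median of 0.66. Socs1, which blocks JAK1, JAK2 and TYK2 and is itself induced by interferons, went from 71.6 ± 76.3 to 1218 ± 234 normalized counts (log2 fold change 4.55, limma adjusted p = 0.00363). Socs3 rose by 3.16 (limma adjusted p = 0.00411). Ptprc, a phosphatase gene and general leukocyte marker, was also among the 6. Without control 2 the count stayed at 6.

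Of the 24 tested receptor chains that use the same kinases for other cytokines, 13 were called higher and 1 lower, with a median of 1.23. Il2rb, a chain of the interleukin-2 and interleukin-15 receptors on T cells and NK cells, went from 126 ± 175 to 2911 ± 1141 normalized counts (log2 fold change 5.32, limma adjusted p = 0.00411). Csf2rb, the shared beta chain for GM-CSF, interleukin-3 and interleukin-5 on myeloid cells, rose by 3.18 (limma adjusted p = 0.00392). Prlr, the prolactin receptor and a JAK2 user, was the gene called lower, from 297 ± 42.6 to 73.7 ± 52.6 (log2 fold change -2.37, limma adjusted p = 0.0218), and was named after its values were seen. Without control 2 the counts were 13 higher and 2 lower, and without ICI-myocarditis library 3 they were 8 and 1.

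Of the other receptors for class II cytokines, the family that holds the interferon receptors, 2 of 6 tested genes were called higher and 0 lower, with a median of -0.16. Il10ra, the interleukin-10 binding chain of leukocytes, went from 455 ± 334 to 2876 ± 849 normalized counts (log2 fold change 2.85, limma adjusted p = 0.00459). Il22ra1 went from 5.48 ± 1.22 to 31.5 ± 16.3 (log2 fold change 2.23, limma adjusted p = 0.0145), on 135 reads in all 7 libraries. It was below 10 normalized counts in all 4 controls and entered the test only through the diseased hearts. Without any 1 of the ICI-myocarditis libraries, 1 of 5 tested genes of this list was called.

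**Figure D5:**
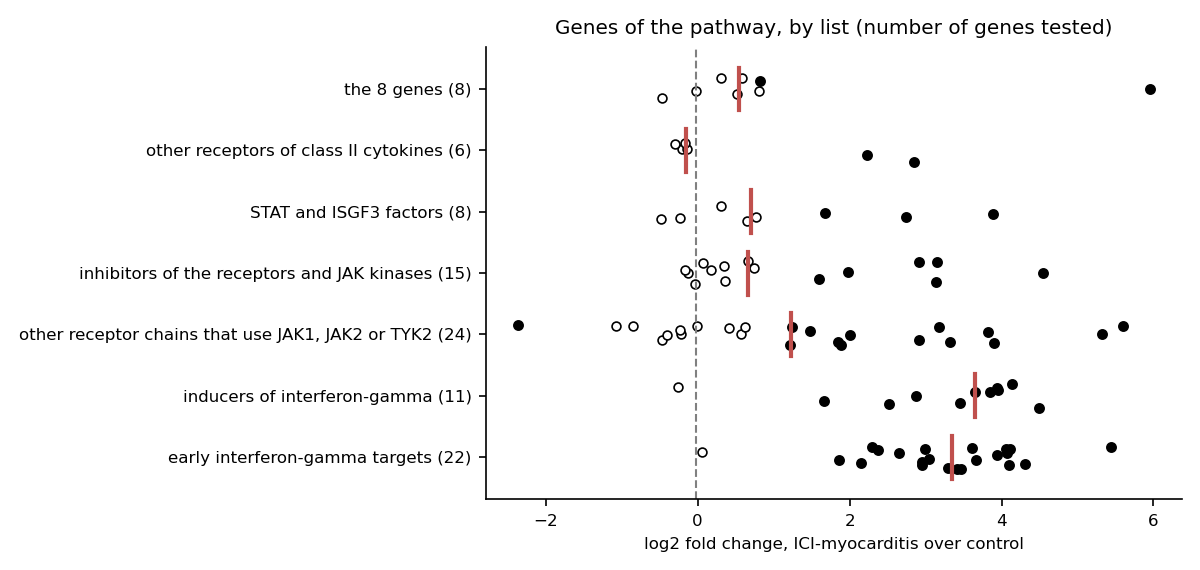
Log2 fold change, ICI-myocarditis over control, of each tested gene in the 8 followed genes and in each pathway list, with called genes filled, the list medians as red bars and the median of all genes tested as a dashed line. The medians of the early targets and the inducers lie at 3.35 and 3.66, and that of the other class II receptors at -0.16.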

How the data were processed

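Total RNA of 7 mouse ventricles was sequenced as stranded paired-end libraries. The aligner STAR 2.7.3 and the build GRCm38/mm10 are named, per the submitters' processing notes. The counting program, annotation and use of strand are not given in the sources used here. The deposited signal per library is a gene read count divided by a size factor, as its whole-number steps show. Recovered reads were within 0.1 of whole numbers for 100% of values. The step of control 1 was 1.01, a weaker sign. The authors' log2 fold change, score and p-value columns are, per the file headers, their own comparison, and only fold changes and adjusted p-values were used.

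Groups and replicate numbers came from the labels, which give 3 and 4 mice per group. limma 3.58.1 (R 4.3.3, trend and robust options) was run on log2(normalized count + 1) for genes that reached 10 normalized counts in 3 or more libraries. On this scale changes of low genes depend on the pseudocount and can differ from those of count models. For Ifng the change was 5.96, against 4.87 with a pseudocount of 5, 4.55 with edgeR and 4.57 with DESeq2. Adjustment was over all genes tested. Alternatives used other pseudocounts, no filter, other scalings, edgeR 4.0.16, DESeq2 1.42.0, limma-voom, a replicate block and each library left out. The tests were checked on simulated counts, where limma, edgeR, limma-voom and DESeq2 each made a larger share of wrong calls than the threshold allows, DESeq2 the largest. Named genes were the 8 genes, the 2 called genes of lowest p in each list, Socs1, Jak3, nearest profiles, markers and neighbours. A few genes that met this rule are not reported here. The 8 genes and the lists were chosen with earlier results of these data known. Promoters are from RefSeq (GRCm38.p6), with all 8 genes matched, and exon lengths from GENCODE M21. Molecular identifiers are not mentioned in the labels, so read floors cover counting error only.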

Additional observations from a re-analysis of the deposited data

How the results depend on the processing

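Depth limits Ifng most, since its controls held 0 to 45 reads. The count of called genes, 2397, was 4003 with limma-voom and quality weights and ran from 986 (without ICI-myocarditis library 3) to 3340 (without control 2) with 1 library left out. It stayed within 1.5 times under the other alternatives, with DESeq2 giving 3441. Of the 8 genes, 2 were called in the fit reported, 5 with limma-voom, and 1 with scaling by library size, without the trend and robust options, or with the replicate block. With 1 library left out the number ran from 1 to 4. Ifng was called in each of these fits. Ifngr1, Ifngr2 and Jak1 were called in none.

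The labels do not say whether a shared replicate number pairs animals. Deviations of same-numbered libraries from their group means had correlations of -0.05, -0.21 and -0.33. Those of differently numbered libraries ran from -0.23 to 0.37. With so few libraries these values cannot decide whether animals were paired. With the replicate block, which leaves out control 4, 1771 genes were called, and Jak2 had a log2 fold change of 0.74 (limma adjusted p = 0.153, against 0.0713 without control 4 and without the block). In the replicate block fit Jak1 was at 0.011 and the Ifnar2 to Ifnar1 ratio at 0.021. The fold change of Jak1 was 0.136 with scaling by library size and ran from -0.096 to 0.02 with 1 library left out, and the Ifnar2 to Ifnar1 ratio ran from -0.119 to 0.021. The Ifng to Cd3 ratio was -0.14 with a pseudocount of 5. The cause of these shifts was not tested. The other 4 ratios kept their sign in all 10 alternatives each.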
